A study of Equus caballus with 4 samples.

Results

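The transcripts of muscle energy supply described here were those of 10 genes: the creatine kinases CKM, CKB and CKMT2, the oxygen-binding protein myoglobin (MB), the adenylate kinase AK1, the glycogen phosphorylases PYGM and PYGB, the glycogen synthase GYS1, and the muscle glycolytic enzymes PGAM2 and ENO3. Every gene probe whose name in the array annotation was exactly one of these symbols was taken, which gave 14 of the 43603 gene probes. CKB had 5 probes and each other gene had 1. Of the 14 probes, 12 passed the filter on dim probes, so that 8 of the 10 genes were tested, and the probes of PYGM and GYS1 were described without a test.

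The cells were equine satellite cells, the stem cells of skeletal muscle that fuse into fibres, from the semitendinosus muscle of 6-month-old stallions, at day 3 of differentiation in medium with horse serum. Treated cultures were held for 24 h with 0.125 µM gamma-oryzanol (GO), ferulic acid esters of plant sterols found in rice bran oil, and 3 mM hydrogen peroxide (H2O2) was present during the last 1 h. Control cultures had no GO but the same solvent, DMSO, and whether they had H2O2 is given by the study, which says that they did, but not by the labels. RNA of a treated culture (red dye, Cy5) and of a control culture (green dye, Cy3) was hybridised together on each of 4 horse arrays, called replicates 1 to 4. The dyes were never swapped, and an effect of the dye and an effect of the treatment cannot be told apart. The cells were of a primary line chosen for viability and fusion, which limits how far the values stand for other horses, and the control name in the labels ends in the same replicate number on every array. The p-values therefore measure only the spread between these 4 arrays.

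Contracting muscle rebuilds ATP fast from phosphocreatine, through creatine kinases, and from pairs of ADP, through adenylate kinase. Glycogen is broken down to glucose phosphates by glycogen phosphorylase, and the sugar then passes through glycolysis, where muscle uses its own forms of phosphoglycerate mutase (PGAM2) and enolase (ENO3). Myoblasts that stop dividing and fuse switch on the muscle forms of these enzymes, and CKM in particular is a common measure of differentiation in culture.

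Values are log2 ratios of red over green after background correction and normalisation within each array. A positive value is thus a higher signal in the treated cultures (GO and H2O2) than in the controls, which by the study also had H2O2. Of the 8 tested genes, 7 had a mean log2 ratio above 0, beside 46.3% of all named genes. PYGB, among the 7, had a mean of 0.0012, which changed sign under 5 of 15 processing alternatives. MB, among the 7, entered the tested set only through the treated channel, being well above background on 4 arrays in red and on 3 in green. Such an entry favours a higher treated signal. The median over the 8 was 0.18, and over all 8140 named genes at their brightest tested probe it was −0.0125. CKM and AK1, 2 of the 8, were higher at a limma adjusted p under 0.05 over all 24229 tested probes, and 8.48% of all named genes were higher by the same rule. None of the 8 was lower by that rule (0 by limma, 0 also at an unadjusted p under 0.05), beside 8.8% of all named genes. Of the 12 tested member probes 2 were higher, beside 9.49% of all tested probes. No member joined the adjusted p with a fold change of 1.3 in either direction, the limit of the study's methods, which 1.24% of named genes did. The study's own list of genes also holds smaller fold changes than that limit. The methods' t-test was a per-probe test of the kind that the study names. With the same adjustment 0 of the 8 passed it, beside 5 of all tested probes. The test was run on the ratios and the filtered probes used here, whereas the study used other software and its own processing. The study's list of genes is longer than 5, so that this count does not stand for the study's own result. By limma 4 of the 8, MB among them, had an unadjusted p under 0.05, beside 8899 of the 24229 tested probes. The 2 calls rested on all but replicate 2: with replicate 1, 3 or 4 left out, 0 member genes passed limma's adjusted threshold. Of all tested probes only 2, 38 and 0 passed it there, so that this loss is not particular to the members.

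On replicate 1 the members' median log2 ratio was 0.35, and on replicates 2, 3 and 4 it was 0.06, 0.09 and 0.11, whereas the medians of all named genes lay between −0.03 and −0.0008. Replicate 1 was thus the highest array for most of the members. Over the 24229 tested probes of the slide, replicate 2 correlated weakly with replicates 3 and 4 (Pearson's r of 0.174 and 0.236). With replicate 1 it correlated better (0.518). Replicate 1 had 0.441 with replicate 3 and 0.491 with replicate 4, while replicates 3 and 4 correlated best (0.697). No gene spot was saturated, 7 to 16 gene spots per array carried an outlier mark, and 54.9% to 61.4% of gene probes were well above background in a channel. Before normalisation the median log2 ratio of gene spots was −0.181, −0.215, −0.221 and −0.383 on replicates 1 to 4. The scanned signals given below are thus not balanced between the dyes, and which channel was the higher in them is no measure of the treatment. The number of arrays limits the precision. In RNA from a whole culture, a change in the share of fused cells and a change in the RNA per cell cannot be told apart.

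**Figure D1:**
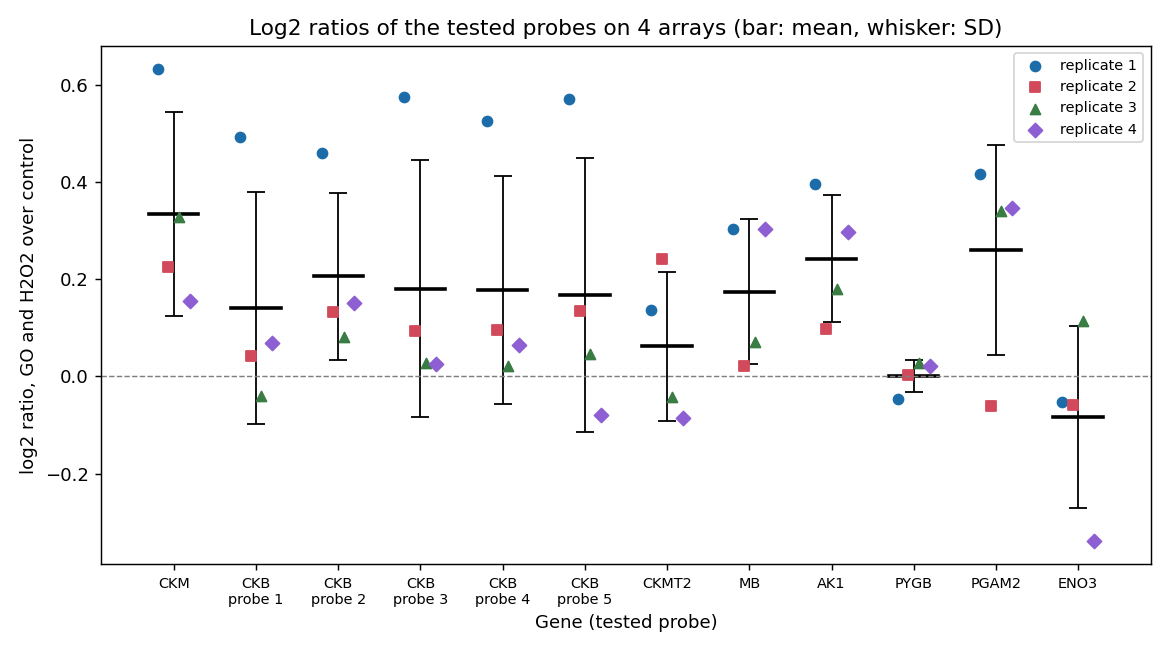
Log2 ratio (GO and H2O2 over control, vertical axis) of the 12 tested probes on each of the 4 arrays, with the mean (bar) and SD (whisker), CKB probes 1 to 5 being in the order of their probe names. Replicate 1 is the highest point for CKM, AK1, PGAM2 and every CKB probe, whereas it lies below 0 for PYGB and ENO3.

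CKM encodes the muscle form of cytosolic creatine kinase, which moves phosphate between ATP and creatine. Its probe (A_69_P046716, EquCab1 chr10:15982221-15982280, minus strand) is shown because it reads the end of the coding sequence. Its last triplet, in capitals, is a stop codon, and the 19 triplets before it in the same frame hold none.
CKM: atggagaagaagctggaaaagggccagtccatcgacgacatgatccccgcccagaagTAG
The scanned red signal of CKM was 10124, 7197, 5335 and 5522 intensity units on replicates 1 to 4, and the green signal was 5317, 4661, 3456 and 4288. The red signal was the higher on every array, and replicate 1 had the widest gap. After normalisation the log2 ratio was 0.63, 0.23, 0.33 and 0.16, with a mean of 0.33 ± 0.21 (SD, n = 4 arrays) and a 95% interval of 0.15 to 0.52. The treated level of CKM was thus 1.26-fold that of the control (limma, adjusted p = 0.0372), above 0 on 4 of 4 arrays and higher than 97.6% of tested probes. The 500 tested probes nearest to it in signal had a median log2 ratio of −0.0099, and the loess normalisation brings such medians close to 0 by design. Without replicate 1 the mean was 0.24 (adjusted p = 0.0964). It was 0.34 without replicate 3 (adjusted p = 0.0933) and 0.39 without replicate 4 (adjusted p = 0.0899), so that none of these passed, while without replicate 2 CKM kept its call (0.37, adjusted p = 0.0386).

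CKB encodes the brain form of cytosolic creatine kinase, which dividing myoblasts also make. Its 5 probes lie on EquCab1 chr24 on the minus strand, each starting 1 base from the next, from chr24:44498088-44498147 to chr24:44498092-44498151. They share 56 of their 60 bases and therefore read 1 stretch of 1 transcript, and they are no replicates of each other. Of the shared stretch 30 bases are printed, to show that all 5 carry AATAAA (in capitals), the letters of the usual polyadenylation signal; 8.64% of all gene probes hold these letters on the probe strand.
CKB, shared stretch: tgctgatgctgaAATAAActagggttttgg
At the brightest probe (A_69_P023694) the red signal was 4467, 3448, 2649 and 2638 on replicates 1 to 4, and the green signal was 2613, 2519, 2140 and 2242. The gap was wide on replicate 1 and narrow on the other arrays. Normalised, its log2 ratio was 0.53, 0.10, 0.02 and 0.07, with a mean of 0.18 ± 0.23 (SD, n = 4; limma, adjusted p = 0.187; 95% interval −0.03 to 0.38). Over the 5 probes, the ratio ran from 0.46 to 0.57 on replicate 1, from 0.04 to 0.13 on replicate 2, from −0.04 to 0.08 on replicate 3 and from −0.08 to 0.15 on replicate 4. Each CKB probe thus set replicate 1 apart, and on replicates 3 and 4 the probes fell on both sides of 0. The other 4 probes had means of 0.14 (A_69_P023691), 0.21 (A_69_P023692), 0.18 (A_69_P023693) and 0.17 (A_69_P023695), with limma adjusted p between 0.0792 and 0.288. No CKB probe passed the adjusted threshold, nor did any under the alternatives tried (smallest limma adjusted p = 0.0698). At A_69_P023692, above 0 on 4 of 4 arrays, the 95% interval of 0.04 to 0.37 did not reach 0. Without replicate 1 the mean fell to 0.06 at the brightest probe and lay between 0.02 and 0.12 over the 5 probes.

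CKMT2 encodes the creatine kinase of the mitochondria of heart and skeletal muscle, which makes phosphocreatine where ATP is produced. Its probe (A_69_P063466, chr14:84012664-84012723, minus strand) had red signals of 248, 226, 149 and 181 on replicates 1 to 4 and green signals of 214, 193, 168 and 212. Red was the higher on replicates 1 and 2 and the lower on replicates 3 and 4. Its log2 ratio was 0.14, 0.24, −0.04 and −0.09, with a mean of 0.06 ± 0.15 (SD, n = 4; limma, adjusted p = 0.505; 95% interval −0.09 to 0.21). Leaving out 1 array at a time moved that mean between 0.0026 (replicate 2 out) and 0.11 (replicate 4 out).

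Within each array, the log2 ratio of CKM exceeded that of CKB on 4 of 4 arrays, by 0.11, 0.13, 0.31 and 0.09. The mean difference was 0.16 ± 0.10 (SD, n = 4; exact sign-flip permutation test, two-sided, p = 0.125, adjusted p = 0.1875 over the 3 pairs of genes compared). CKM exceeded CKMT2 on 3 of 4 arrays, by 0.27 ± 0.22 on average (exact test, p = 0.25, adjusted p = 0.25). With 4 arrays no such test can go below 0.125, so that neither difference could pass the threshold.

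AK1 encodes the cytosolic adenylate kinase of muscle, which turns 2 ADP into ATP and AMP. Its probe (A_69_P014311, chr25:7411781-7411840, plus strand) is shown because AK1 was, with CKM, the other gene called; the capitals mark its last TAG, and the 15 triplets before it in the same frame hold no stop codon.
AK1: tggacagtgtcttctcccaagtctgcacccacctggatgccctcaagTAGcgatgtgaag
The red signal of AK1 was 2444, 1766, 1649 and 1822 on replicates 1 to 4, and the green signal was 1584, 1318, 1189 and 1333. Red was the higher on every array. After normalisation AK1 had log2 ratios of 0.40, 0.10, 0.18 and 0.30, with a mean of 0.24 ± 0.13 (SD, n = 4) and a 95% interval of 0.11 to 0.38. This is a 1.18-fold higher level in the treated cells (limma, adjusted p = 0.0368), above 0 on 4 of 4 arrays. Replicate 2 was the lowest and replicate 1 the highest. The adjusted p was 0.128, 0.0794 and 0.133 without replicate 1, 3 or 4, and 0.0265 without replicate 2, with means of 0.19 to 0.29. Background correction by normexp without the offset also ended the call (0.24, adjusted p = 0.0508).

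PGAM2 encodes the muscle phosphoglycerate mutase of late glycolysis. Its probe (A_69_P078191, chr4:14917699-14917758, minus strand) is shown because the gene's call turned on a single array.
PGAM2: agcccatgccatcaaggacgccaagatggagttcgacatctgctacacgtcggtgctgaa
Scanned red signals of PGAM2 were 4381, 2775, 2926 and 2986 on replicates 1 to 4, and the green signal was 2757, 2261, 1885 and 2084. The red signal was the higher on every array before normalisation. Log2 ratios of PGAM2 were 0.42, −0.06, 0.34 and 0.35, so that replicate 2 stood below 0 and the other arrays close together above it. The mean of 0.26 ± 0.22 (SD, n = 4), a 1.20-fold higher level, did not pass the test (limma, adjusted p = 0.069; 95% interval 0.07 to 0.45). Without replicate 2 the mean was 0.37 and passed it (adjusted p = 0.0135).

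ENO3 encodes beta-enolase, the enolase of adult muscle, which acts in the step after PGAM2. Its probe (A_69_P035491) spans 457 bases of the genome, chr11:48376684-48377140 on the minus strand. ENO3 had red signals of 342, 289, 261 and 294 on replicates 1 to 4 and green signals of 328, 272, 221 and 362. Red was the higher on replicates 1 to 3 and the lower on replicate 4. The log2 ratio was −0.05, −0.06, 0.11 and −0.34, with a mean of −0.08 ± 0.19 (SD, n = 4; limma, adjusted p = 0.434; 95% interval −0.26 to 0.09), the only mean below 0 among the 8 tested genes. Without replicate 4 it was 6e-04. ENO1, the enolase of most other tissues, had a ratio of 0.21 ± 0.11 (limma, adjusted p = 0.0404), above 0 on 4 of 4 arrays. The ratio of ENO3 was below that of ENO1 on 4 of 4 arrays, by 0.11, 0.29, 0.21 and 0.56. The mean difference, ENO3 minus ENO1, was −0.29 ± 0.19 (exact sign-flip permutation test, two-sided, p = 0.125, adjusted p = 0.1875), and it was −0.18 when the running median of the ratio over signal was taken off. The mutase pair of PGAM2 and PGAM1 was not analysed here, since no array probe carried the name PGAM1.

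MB encodes myoglobin, which stores oxygen in muscle fibres. Its probe (A_69_P002066, chr28:33023672-33023731, minus strand) is shown since its value depends on the handling of dim signal.
MB: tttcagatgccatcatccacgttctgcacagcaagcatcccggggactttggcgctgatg
The probe was well above background on 4 arrays in the red channel and on 3 in the green. Red signals were 126, 105, 95.4 and 94.7 on replicates 1 to 4, and green signals were 109, 131, 124 and 110. The scanned red signal was the lower on replicates 2, 3 and 4. After background correction and normalisation the log2 ratio was 0.30, 0.02, 0.07 and 0.30, above 0 on 4 of 4 arrays, with a mean of 0.17 ± 0.15 (SD, n = 4; limma, adjusted p = 0.0944; 95% interval 0.03 to 0.32). The mean was 0.10 with no background correction, 0.32 with normexp without the offset and 0.46 with Agilent's processed signals, none past the test (adjusted p = 0.43, 0.0861 and 0.119).

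PYGM encodes the glycogen phosphorylase of skeletal muscle, which releases glucose phosphate from glycogen. Its probe (A_69_P010911) spans 173 bases, chr12:15298617-15298789, and was well above background on 2 arrays in the red channel and on 0 in the green. Its red signal was 88.4, 86.3, 79.2 and 78.3 on replicates 1 to 4 and the green signal was 91.9, 97.5, 95.5 and 102. Both were thus dim, and red was the lower on every array before normalisation. The normalised log2 ratio was 0.13, 0.17, 0.10 and 0.25. With the control not well above background on any array and the treated channel on only 2, no fold change is given for PYGM. Without the filter on dim probes PYGM passed the test (0.16, limma, adjusted p = 0.0475), but at signals too near background for a difference to be read from it.

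PYGB encodes the brain form of the phosphorylase, which immature muscle also makes. Its probe (A_69_P023851, spanning 1292 bases, chr22:170772-172063, plus strand) had red signals of 223, 184, 181 and 308 on replicates 1 to 4 and green signals of 217, 183, 184 and 302. Red and green lay side by side on every array. The log2 ratio was −0.05, 0.0032, 0.03 and 0.02, with a mean of 0.0012 ± 0.03 (SD, n = 4; limma, adjusted p = 0.985). The 95% interval of −0.09 to 0.09 makes PYGB the member with the narrowest bounds on a difference. PYGB and PYGM were not set against each other, because PYGM was not tested.

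GYS1 encodes the glycogen synthase of muscle, the enzyme that extends glycogen chains. Its probe (A_69_P001171) is placed by the array annotation at 234062836 to 234062895 of chrUn, the collection of unplaced sequence, on the minus strand. It was well above background on 1 array in the red channel and on 2 in the green. Red signals were 83.3, 70.9, 71.6 and 66.7 on replicates 1 to 4, and green signals were 102, 116, 111 and 112. Red was the lower on every array. GYS1 had log2 ratios of −0.0042, −0.19, −0.19 and −0.22, and the gene is given without a test.

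**Figure D2:**
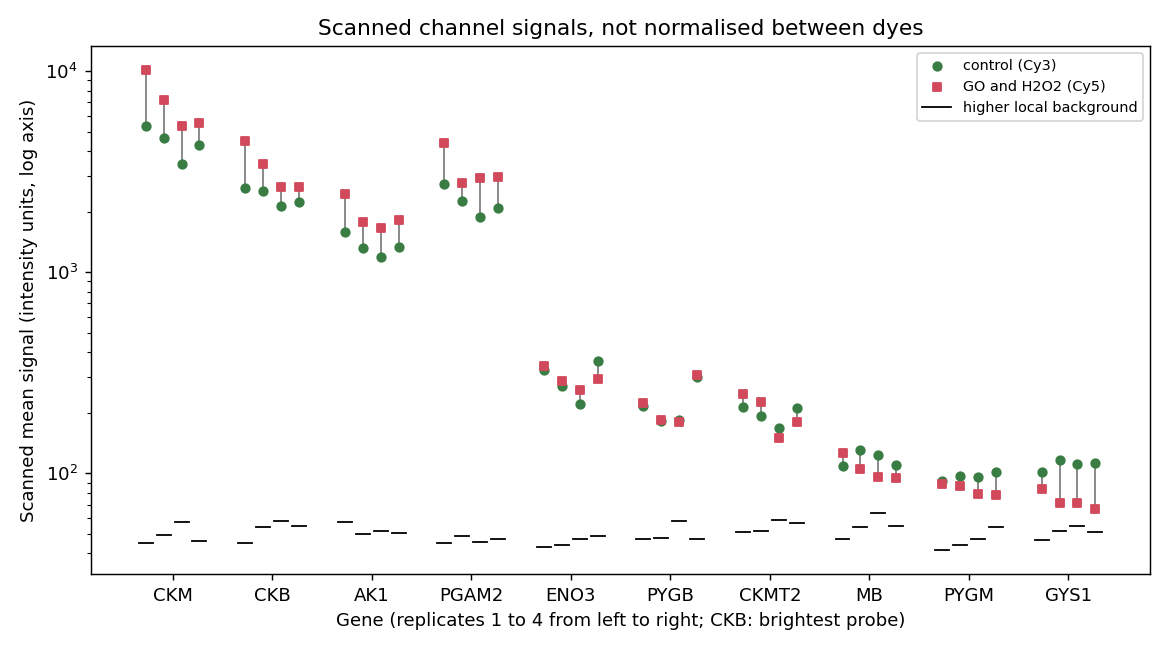
Scanned mean signal (intensity units, log axis) of the control (green circles) and treated channel (red squares) on replicates 1 to 4, left to right, for the 10 genes, with the higher of the 2 local backgrounds as a short line. Red lies above green on all arrays for CKM, CKB, AK1 and PGAM2, and below it on all arrays for PYGM and GYS1, whose signals are close to the background. The signals are not normalised between the dyes, so that the higher channel is no measure of the treatment.

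Each tested member was also set beside probes of its own signal. For each of the 12 member probes, the 500 tested probes nearest in signal had a median log2 ratio between −0.02 and 0.02. CKM, AK1 and PGAM2 had ratios of 0.33, 0.24 and 0.26. Loess within each array brings the median at a given signal close to 0, so that these medians are no independent control. A probe's brightness is no level of its transcript, and genes are not compared along that axis.

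**Figure D3:**
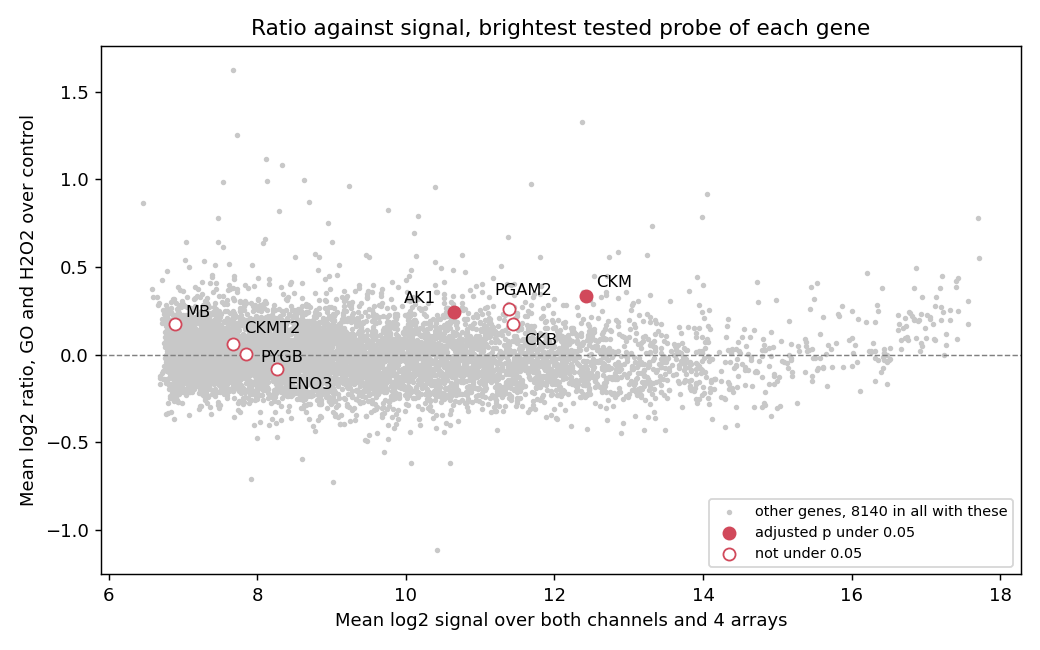
Mean log2 ratio (vertical axis) against mean log2 signal over both channels and 4 arrays (horizontal axis) at the brightest tested probe of 8140 named genes, with the 8 tested member genes named. CKM and AK1 (filled) had a limma adjusted p under 0.05, and the cloud of all genes turns up at the bright end, above the members' signals.

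The probes of the 10 genes shared no common composition: CKM, MB, AK1, PGAM2 and GYS1 had 55% G and C, ENO3 43.3%, PYGM and PYGB 45%, CKMT2 36.7% and the CKB probes 38.3% to 41.7%, with a median of 43.3% over all gene probes. The array annotation places 6 of the genes within 10000 bases of a probe with another name. The nearest such probe with a test was FTL for GYS1 (−0.11), DBNL for PGAM2 (0.27), SPAG7 for ENO3 (0.0056) and ABHD12 for PYGB (−0.01). The members' own ratios were −0.15, 0.26, −0.08 and 0.0012.

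The calls for CKM, AK1, PGAM2 and MB were set side by side over the processing choices. CKM, AK1 and PGAM2 kept their direction under each of the 15 alternatives. Those that changed only the filter, the variance, the test or the pairing kept the same mean ratios, so that no direction could change there. MB kept its direction under the 14 that tested it, and dropped out when both channels had to be well above background on all arrays. The call of CKM held under 9 of 15 alternatives and that of AK1 under 8 of 15. These counts, and those given below for other genes, take Agilent's processed signals and the series matrix as separate alternatives, although their values were the same. Median centring in place of loess left no member called (CKM 0.34, adjusted p = 0.574; AK1 0.22, adjusted p = 0.779). So did a fit that treated the channels of an array as unpaired (CKM, adjusted p = 0.0637; AK1, adjusted p = 0.106).

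**Figure D4:**
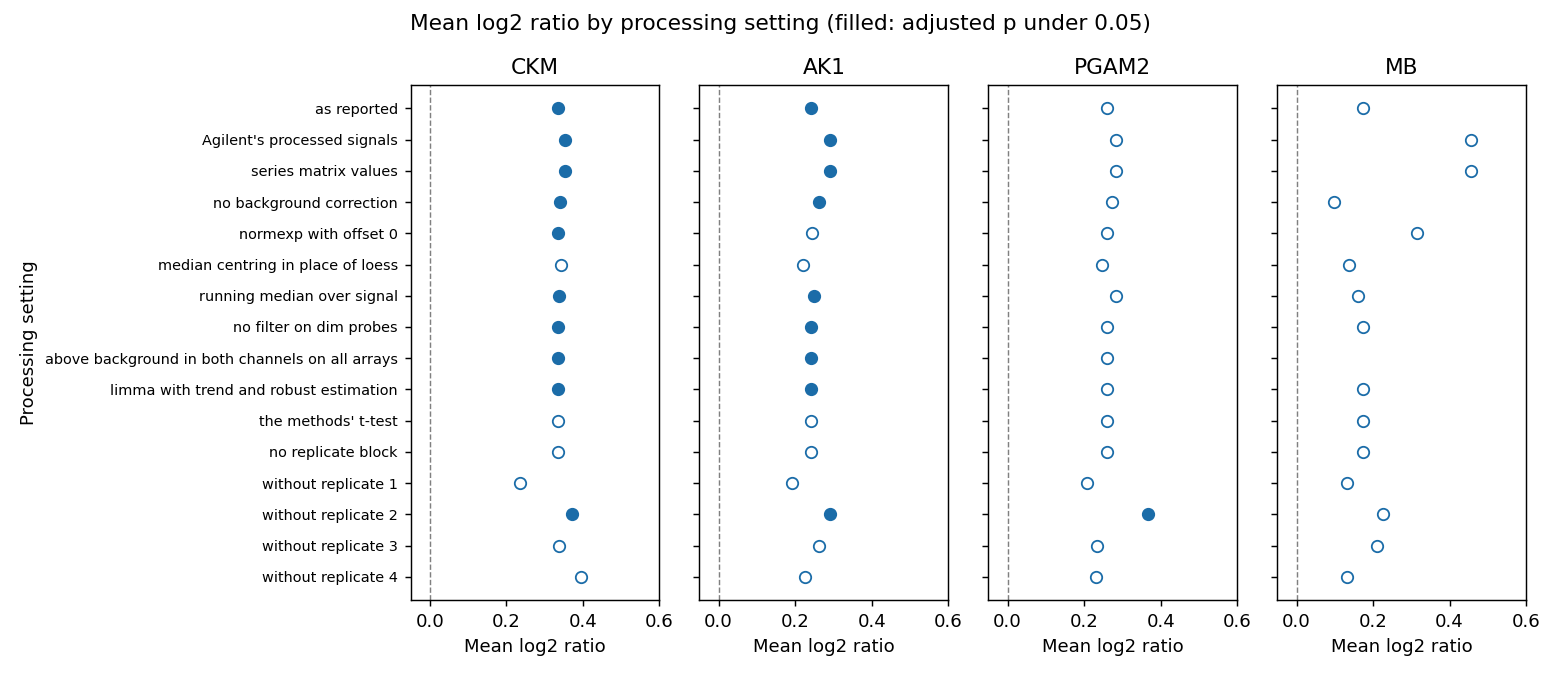
Mean log2 ratio (horizontal axis) of CKM, AK1, PGAM2 and MB under each processing setting (rows), filled where the adjusted p was under 0.05. Means of CKM stay between 0.24 and 0.39 and those of AK1 between 0.19 and 0.29, with calls that come and go, whereas the mean of MB ranges from 0.10 to 0.46.

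The other genes of creatine, adenylate and AMP handling did not move as a group. Of 17 listed genes, 12 were on the array under those names and 11 were tested; 6 had a mean above 0, with a median of 0.0042. By limma 0 of the 11 passed the adjusted threshold, 4 had an unadjusted p under 0.05 (2 higher and 2 lower), and 0 passed by the methods' t-test. AMPD1, AMPD2 and ADSS were singled out after their values were seen. AMPD1 encodes the AMP deaminase of muscle; its log2 ratio was 0.80, −0.08, 0.62 and 0.44, with a mean of 0.45 ± 0.38 (limma, adjusted p = 0.0605). As for PGAM2, replicate 2 was the array below 0, and without it AMPD1 passed (0.62, adjusted p = 0.0122). ADSS, an adenylosuccinate synthase, averaged −0.17 ± 0.10 on the log2 scale (limma, adjusted p = 0.0537), and AMPD2, another AMP deaminase, −0.12 ± 0.04 (adjusted p = 0.0754), both below 0 on 4 of 4 arrays.

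Of 28 genes of glycogen making and breakdown, 17 were tested, 8 had a mean above 0 and the median was −0.0076. NHLRC1, the ubiquitin ligase malin, was higher (0.17 ± 0.07, limma, adjusted p = 0.0442). GYG1, the glycogenin that primes glycogen chains, was lower (−0.21 ± 0.09, limma, adjusted p = 0.0329), on 4 of 4 arrays. The calls held under 5 (NHLRC1) and 8 (GYG1) of 15 alternatives, and by the methods' t-test 0 of the 17 passed. By limma 8.48% of all named genes were higher and 8.8% lower.

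Of 18 genes of glycolysis, 15 were tested, 9 had a mean above 0 and the median was 0.06. ALDOA, the aldolase of muscle (0.24 ± 0.04, limma, adjusted p = 0.0184), the triose phosphate enzyme GAPDH (0.24 ± 0.08, adjusted p = 0.0233) and ENO1 were higher, and none was lower (0 by limma, 1 at an unadjusted p under 0.05). All 3 probes lay at the bright end of the arrays, with mean log2 signals of 16.77, 16.79 and 16.72, where the ratios of all genes turned up. After removal of the running median over signal they had ratios of 0.11, 0.10 and 0.11 and passed no longer (adjusted p = 0.0989, 0.202 and 0.214), whereas CKM had 0.34 (adjusted p = 0.0404). With median centring in place of loess they had ratios of 0.49, 0.48 and 0.45, also short of the threshold (adjusted p = 0.559, 0.551 and 0.608). The calls of ALDOA, GAPDH and ENO1 held under 7, 6 and 3 of 15 alternatives, and by the methods' t-test 0 of the 15 genes passed. The share of all named genes called higher by limma was 8.48%. Of the 13 GAPDH probes tested, 7 had a mean above 0.

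The cultures carried the markers of differentiating muscle. Of 10 such genes 9 were tested, CKM among them. At the brightest tested probe all 9 had a mean above 0, with a median of 0.33, beside 46.3% of all named genes above 0. Of the 2 MYOD1 probes tested, 1 had a mean above 0. MYOG, MYH3, MYH8, TNNT3, MYL1 and CKM, 6 of the 9, were higher by limma's adjusted threshold, beside 8.48% of all named genes. Each kept that call under 5 to 10 of 15 alternatives, and by the methods' t-test 0 of the 9 passed. The MYH3 probe was bright, with a mean log2 signal of 16. After removal of the running median over signal its ratio was 0.20 and passed no longer (limma, adjusted p = 0.0607). MYH8, the perinatal myosin heavy chain, had the widest ratio (0.75 ± 0.48, limma, adjusted p = 0.0317), and MYL1 (0.40 ± 0.06, adjusted p = 0.0124) the narrowest spread. Their medians on replicates 1 to 4 were 0.42, 0.23, 0.42 and 0.16, against the members' 0.35, 0.06, 0.09 and 0.11. The part of these markers in the members' ratios was not tested. Of 7 fibroblast markers 5 were tested, with 1 higher (THY1, 0.28) and 1 lower (LUM, −0.43). Of the 4 satellite cell markers, PAX7 and CDH15 were not on the array under those names. The 2 tested were NCAM1, which was higher (0.16), and MYF5, which was not called (0.09). None of the adipocyte genes (ADIPOQ, FABP4, PPARG) or the endothelial genes (PECAM1, CDH5, KDR, TEK) on the array was bright enough to be tested, nor was HBB of blood, and CD68 of macrophages had a ratio of 0.0049.

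The genes whose ratios over the 4 arrays lay nearest to those of CKM were sought among 8132 other named genes by Euclidean distance. They were CECR5 (distance 0.0741 in log2 units), ACHE (0.125), RANBP10 (0.135), NOC2L (0.147) and PRMT1 (0.169). ACHE, the acetylcholinesterase of the neuromuscular junction, had log2 ratios of 0.56, 0.29, 0.24 and 0.13 on replicates 1 to 4. CECR5 had 0.59, 0.28, 0.36 and 0.14. All 5 were highest on replicate 1, as CKM was, which follows from their choice by distance to CKM. The likeness rests on 4 arrays.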

How the data were processed

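The deposited files hold 1 scanner table per array (Agilent Horse 4x44K), whose spot intensities the authors obtained, per the file headers, from Feature Extraction (Agilent, version 10.10.1.1). The deposited log10 ratios (processed red over processed green, after background subtraction and dye normalisation) equal those of the authors' series matrix (largest difference 0) and were used, turned to log2, as alternatives only.

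Mean and background intensities were corrected by normexp (offset 50) and normalised within arrays by loess, with control spots at weight 0. Control spots and spots with outlier marks were left out, and spots of a probe were averaged. Tested were probes that 1 channel, red or green, held well above background on each of the 4 arrays. The mean log2 ratio was tested against 0 with limma version 3.58.1 (R version 4.3.3; lmFit and eBayes, two-sided, Benjamini-Hochberg over 24229 probes, threshold 0.05). The brightest tested probe stood for a gene. Treated and control RNA shared an array, which pairs them. The fit was tested on simulated data.

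Named were all 10 members with every probe, the partner ENO1, at most 3 genes per context list with the smallest adjusted p under 0.05, and the 5 genes nearest to CKM. Beside this rule, the cell type markers and the probes next to members are named, and AMPD1, AMPD2 and ADSS were chosen after their values were seen. The members and lists were chosen with earlier results of these data known. Alternatives covered the signals, background correction, normalisation, filter, variance, test, pairing, probes per gene and each array left out. Positions are in EquCab1, the build of the file headers; a RefSeq gene table of another assembly held all 10 symbols, and none of its coordinates were used.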

Additional observations from a re-analysis of the deposited data

Results flagged for a closer look

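Of 20 sets of 4 array ratios examined, 3 had 1 array far from the other arrays, as the gap to the nearest array over the whole range shows, which chance gives for about 1 in 20 sets. PGAM2 had a gap over range of 0.84, with replicate 2 low (−0.06 against 0.34 to 0.42). The CKB probes A_69_P023693 (0.875) and A_69_P023694 (0.854) had replicate 1 high, at 0.57 and 0.53, and these probes share 56 of 60 bases, so that they count as 1 observation.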

How the results depend on the processing

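Member genes past the threshold numbered 2 (CKM and AK1), with 0 to 3 when 1 array was left out (0 without replicate 1, 3 or 4; 3 without replicate 2, which added PGAM2), 3 without the filter on dim probes (adding PYGM), 1 with normexp without the offset, and 0 with median centring, with the methods' t-test and with no replicate block; member probes gave the same counts. At an unadjusted p under 0.05 there were 4 member genes, 1 with median centring, 2 with the methods' t-test and 3 with no replicate block. All tested probes gave 8899, 1571, 6930 and 5530 by the same rule, in that order. Over all probes 4137 passed, 12 with median centring, 5 with the methods' t-test (6930 unadjusted), 594 with no replicate block (all 594 among the 4137), and 0 to 3898 with 1 array left out (2, 3898, 38 and 0 without replicates 1 to 4; 6694 unadjusted without replicate 4). With the fold limit of 1.3 the count was 345. It was 1102 both with the series matrix and with Agilent's processed signals, 660 with normexp without the offset, 12 with median centring, 1 with the methods' t-test, 210 with no replicate block, and 0 to 694 with 1 array left out. The mean of PYGB, 0.0012, changed sign with normexp without the offset (−0.0048), median centring (−0.0033), the running median (−0.0012) and when 1 array was left out (−0.0075 to 0.017), as did that of ENO3 when 1 array was left out (−0.15 to 6e-04, above 0 without replicate 4). The ratios of PYGM (0.16) and GYS1 (−0.15) had a test only without the filter. The cause of these shifts was not tested. The 3 differences between pairs of genes kept their direction in every alternative run on them, of which those on the filter reused the same ratios. Both PYGM pairs and the PGAM1 pair could not be formed. Signal near background limits PYGM, GYS1 and MB.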
